A study of Mus musculus with 6 samples.

Results

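The genes described here are 32 genes of DNA replication and S phase, measured in cells sorted from the bone marrow of young and old C57BL/6 mice. They were chosen by name, with earlier results of these data known. Every probe whose accession is a RefSeq transcript of one of the 32 genes was collected. Where a gene had several probes, the one with the highest mean signal was taken. All 32 had a probe among 37163 gene names on the array, all 32 were well above background on all 6 arrays, and all were among the 23266 genes tested. Young mice were 3 months old and old mice 24 months old, with 3 samples each, untreated and of 1 strain as far as the labels say. The labels call the cells mesenchymal stem cells of the bone marrow without giving the sort's markers. Whether the samples of an age are from different animals is not stated, and p-values here therefore measure only the spread between samples, which may be technical. In bulk RNA, fewer cells of a type and less RNA per cell cannot be told apart.

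Before a cell divides, the MCM2-7 helicase is loaded onto origins by ORC, CDC6 and CDT1, and it is switched on in S phase when CDC45 and the GINS complex join it. Polymerases alpha, delta and epsilon then copy the strands, with delta and epsilon held by the PCNA clamp. Ribonucleotide reductase and thymidylate synthase supply the nucleotides. Transcription of most of these genes is driven by E2F factors at the end of G1, so their messages are abundant in cycling cells and scarce in resting ones. In marrow, dividing erythroid, myeloid and lymphoid precursors carry much of this RNA, whereas stromal stem cells are described as largely resting.

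E2F factors bind words such as TTTGGCGC, and promoters of the 32 genes were searched for such words. The genes were not picked by these words. Most of them are driven by E2F as described above, so a high share of matches is no separate support. RefSeq promoter windows (build GRCm38.p6, 250 bases before to 50 after a start site) were found for 27 of the 32 genes, the others being Mcm4, Gins1, Gins2, Pole and Ccne2. The words TTTCCCGC, TTTCGCGC, TTTGCCGC and TTTGGCGC were sought on both strands, overlapping matches included. At least 1 was present in 11 of 27 genes (40.7%), against 2.6% of all 27025 genes with a window and 1 of 18 mitosis genes (5.56%). The shorter CCAAT was present in 15 of the 27 (55.6%; 41.1% of all genes), and TTTGAA, the cell cycle homology element of mitotic genes, in 3 (11.1%; 20.2% of all). The sequences below are stretches of these windows upstream of the start site, trimmed to lie outside RefSeq genes, on build GRCm38.p6. Mcm6 and Mcm5 are shown for their matches, in capitals, and Pcna, Slbp and Chaf1b as genes whose young and old values did not overlap and which held no match.
Mcm6, chr1:128359726-128359875, minus strand: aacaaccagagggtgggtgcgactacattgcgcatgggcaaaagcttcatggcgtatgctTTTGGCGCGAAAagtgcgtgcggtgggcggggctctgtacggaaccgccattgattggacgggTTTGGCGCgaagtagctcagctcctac
Mcm5, chr8:75109339-75109467, plus strand: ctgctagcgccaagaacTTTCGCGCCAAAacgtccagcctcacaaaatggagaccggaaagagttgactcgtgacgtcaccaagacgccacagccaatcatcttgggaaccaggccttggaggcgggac
Pcna, chr2:132253201-132253337, minus strand: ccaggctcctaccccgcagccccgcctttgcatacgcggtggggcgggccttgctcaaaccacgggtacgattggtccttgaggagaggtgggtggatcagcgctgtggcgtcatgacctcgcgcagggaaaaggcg
Slbp, chr5:33652595-33652744, minus strand: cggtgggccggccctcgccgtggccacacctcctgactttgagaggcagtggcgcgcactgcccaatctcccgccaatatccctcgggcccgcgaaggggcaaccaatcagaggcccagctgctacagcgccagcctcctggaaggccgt
Chaf1b, chr16:93883731-93883880, plus strand: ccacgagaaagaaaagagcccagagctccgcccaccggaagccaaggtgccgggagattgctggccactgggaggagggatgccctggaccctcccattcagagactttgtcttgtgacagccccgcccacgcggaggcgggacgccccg
The 11 genes with a match had old minus young differences (described below) between -0.20 and 0.19, with a median of 0.00. The 16 without one lay between -0.32 and 0.38, with a median of 0.01. Mcm7 and Pold1, not shown, held a match and also had young and old values that did not overlap. The sequences shown therefore do not pair a match with the lack of an age difference. A match is a run of letters and was not tested as a binding site.

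Array brightness and cell markers set the frame for these values. Young arrays were brighter, with a 75th percentile of 315 to 393 against 229 to 319 on old arrays, and 55.3% to 60.0% and 50.9% to 53.4% of probes were well above background. Of all genes tested 1953 (8.39%) passed a limma adjusted p of 0.05, 1020 higher (4.38%) and 933 lower (4.01%) in old samples. Other scalings moved that split, to 649 higher and 898 lower with cyclic loess, 597 and 934 with the deposited table, and 2302 and 1058 after normexp background correction. Among markers of the labelled cell type, Pdgfra, Pdgfrb and Prrx1 were well above background on 0 of 6 arrays, and 11 of 18 stromal markers were detected in every sample. Of the 15 stromal markers tested 2 rose and 4 fell, with a median of -1.06. Lepr and Sp7 rose by 1.03 and 1.05 (limma adjusted p = 0.0249 for both), whereas Sparc, Cxcl12 and Thy1 fell by 4.29, 2.38 and 1.54 (limma adjusted p = 0.0312, 0.0320 and 0.0430). Col1a1 fell as well (limma adjusted p = 0.0219) and was well above background on all 3 young and 0 old arrays. Of erythroid markers with a probe 17 of 18 were so detected, and of maturing neutrophil markers 10 of 10. The young and the old arrays occupied different rows of 1 slide, and a slide row effect cannot be told apart from age.

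None of the 32 replication genes passed the test between the ages. In old minus young samples 16 had a positive and 16 a negative log2 difference, none passed a limma adjusted p of 0.05 (0 of 32, with 0 higher and 0 lower, where 8.39% of all genes passed, 4.38% higher and 4.01% lower), and 3 had an unadjusted limma p under 0.05 (28.9% of all genes did). The differences ran from -0.32 for Slbp to 0.38 for Ung with a median of -0.01, against a median of 0.08 for all genes tested. No member of the set reached a difference of 1 log2 unit in either direction, as 5.91% of all genes did. The 95% interval of the difference lay within 0.5 log2 units of 0 for 27 of the 32, and within 1 log2 unit for all 32. The exceptions at 0.5 were Cdc45, Rfc3, Slbp, Tyms and Ung. Of all genes tested, 44.8% had an interval within 0.5, but their brightness differed. Mean log2 signals from -4 to -2 held 6023 genes and 1 of the 32, and those from 6 to 8 held 871 and 15. For genes of equal brightness the interval share was not computed, whereas on average 4.44% of them passed (below). The other shares of all genes in this paragraph have the same limit. The intervals also leave out the choice of scaling. Young and old values did not overlap in 7 of the 31 genes with all 6 values, and in 37.1% of all such genes.

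**Figure D1:**
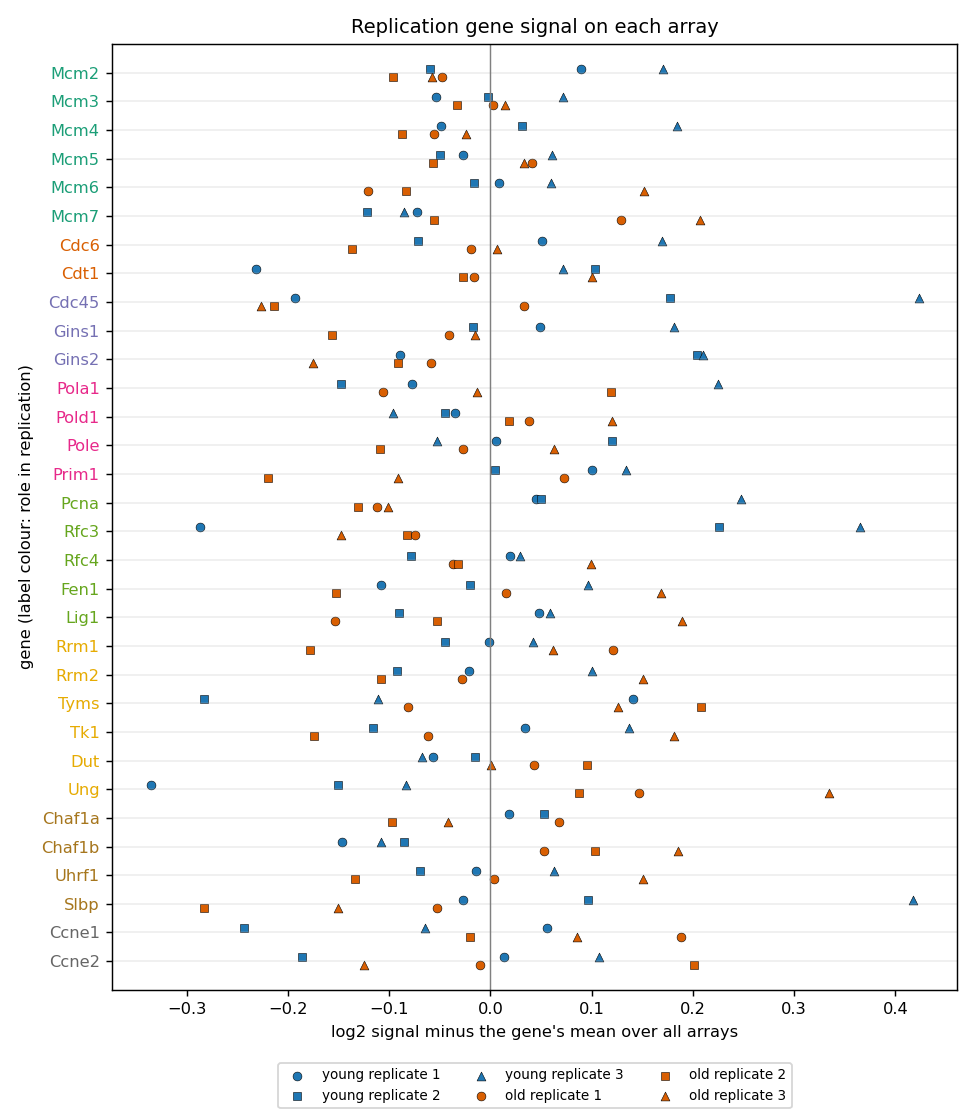
Log2 signal of each replication gene on each array minus that gene's mean over the arrays (horizontal axis), with young samples as blue and old samples as orange symbols and the gene names coloured by role as in the plot of differences. Blue and orange symbols are mixed in most rows, and they are separated in 7 of 31 rows with all values, among them Ung, Chaf1b and Pcna.

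The 6 subunits of the MCM helicase, the ring that unwinds DNA at the fork, had differences between -0.13 and 0.19. On the scale of log2 signal relative to each array's 75th percentile, used for all levels here, Mcm3 was 6.80, 6.85 and 6.93 in the young samples and 6.86, 6.82 and 6.87 in the old ones, each given in the order of replicates 1, 2 and 3 as everywhere below. The groups overlapped, and the difference was -0.01 ± 0.08 (SE; 95% interval -0.20 to 0.18). Mcm5 was 6.47, 6.44 and 6.55 in young and 6.53, 6.44 and 6.53 in old samples, with a difference of 0.01 ± 0.08. Mcm6 was 8.30, 8.28 and 8.36 in young and 8.17, 8.21 and 8.45 in old samples. Old replicate 3 was the highest of the 6 and the other two old samples were the lowest, so the old group enclosed the young one, and the difference was -0.03 ± 0.10. Mcm2 and Mcm4 had differences of -0.13 ± 0.09 and -0.11 ± 0.09 with overlapping groups. Mcm7 was the one subunit whose young and old values did not overlap. It was 7.13, 7.08 and 7.11 in young and 7.33, 7.14 and 7.40 in old samples, so every old value was above every young one, though old replicate 2 was barely above young replicate 1. Its difference of 0.19 ± 0.10 did not pass (limma adjusted p = 0.257, 95% interval -0.05 to 0.42), and it was 0.02 in the deposited table and 0.03 with cyclic loess.

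The licensing factors Cdc6 and Cdt1 bring the helicase to origins, and Cdt1 is destroyed once S phase starts. Cdt1 was 6.73, 7.07 and 7.04 in young and 6.95, 6.94 and 7.06 in old samples, with a difference of 0.04 ± 0.12. The spread here lay in the young group, where replicate 1 was the lowest of all 6 samples. Cdc6 was 3.42, 3.29 and 3.54 in young and 3.35, 3.23 and 3.37 in old samples, which overlapped (difference -0.10 ± 0.10). A second Cdc6 probe gave a difference of -0.37.

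The 3 activators of the helicase, Cdc45 and the GINS subunits Gins1 and Gins2, all had negative differences, and none passed (limma adjusted p = 0.254 to 0.361). Cdc45 was 0.78, 1.15 and 1.39 in young and 1.0, 0.75 and 0.74 in old samples. Young replicate 1 lay among the old values and young replicate 3 was the highest, and the difference was -0.27 ± 0.17 (95% interval -0.70 to 0.15), the widest negative bound among the 32. Gins2 was 2.62, 2.91 and 2.92 in young and 2.65, 2.61 and 2.53 in old samples, again with young replicate 1 inside the old range (difference -0.22 ± 0.11). Gins1 had a difference of -0.14 ± 0.09. The size for Cdc45 depended on single young samples: it was -0.44 without young replicate 1 and -0.13 without young replicate 3, and neither passed.

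Among the polymerases, Pola1 encodes the catalytic subunit that starts each strand after the primase Prim1 has laid down RNA, and Pold1 and Pole encode the catalytic subunits of the lagging and leading strand enzymes. Pola1 was 3.66, 3.59 and 3.96 in young and 3.63, 3.86 and 3.72 in old samples, and the group means were both 3.74. Pold1 was 5.11, 5.10 and 5.05 in young and 5.18, 5.16 and 5.27 in old samples. These groups did not overlap, and the difference was 0.12 ± 0.08 (limma adjusted p = 0.366). Pole had a difference of -0.05 ± 0.09. Prim1 was 5.70, 5.61 and 5.73 in young and 5.67, 5.38 and 5.51 in old samples, where old replicate 1 lay within the young range (difference -0.16 ± 0.10).

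The clamp Pcna had the third smallest unadjusted p of the 32, after Ung and Chaf1b. It was 7.25, 7.25 and 7.45 in young and 7.09, 7.07 and 7.10 in old samples. The old values lay close together and all below the young ones, and the difference of -0.23 ± 0.09, a factor of 1.17, did not pass (limma adjusted p = 0.159, 95% interval -0.45 to -0.01). The clamp loader subunit Rfc4, the flap nuclease Fen1 and the ligase Lig1, which joins Okazaki fragments, had differences of 0.02, 0.02 and -0.01, each with an SE of 0.08 to 0.12. Rfc3 was 1.71, 2.23 and 2.37 in young and 1.93, 1.92 and 1.85 in old samples. Its old samples were close together and its young samples lay on both sides of them (difference -0.20 ± 0.18; -0.40 without young replicate 1 and -0.07 without young replicate 3).

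Genes of nucleotide supply and uracil removal included the largest difference. Rrm2, the regulated subunit of ribonucleotide reductase, was 6.89, 6.82 and 7.01 in young and 6.88, 6.80 and 7.06 in old samples, and its partner Rrm1 had a difference of 0.00 ± 0.10. The Rrm2 groups overlapped, with a difference of 0.01 ± 0.10 (95% interval -0.25 to 0.26). Ung, the uracil-DNA glycosylase that removes uracil from new DNA, was 6.00, 6.18 and 6.25 in young and 6.48, 6.42 and 6.67 in old samples. All old values exceeded all young ones, and the difference was 0.38 ± 0.11 (95% interval 0.11 to 0.65, limma adjusted p = 0.0882; adjusted p between 0.0693 and 0.230 over the alternatives). Dut, which keeps dUTP out of DNA, also had separate groups, at 5.38, 5.42 and 5.37 in young and 5.48, 5.53 and 5.44 in old samples, with a small difference of 0.09 ± 0.08. Thymidylate synthase, Tyms, was -0.15, -0.57 and -0.40 in young and -0.37, -0.08 and -0.17 in old samples, with overlap (difference 0.17 ± 0.14). Thymidine kinase, Tk1, had a difference of -0.04 ± 0.13.

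Genes that pack and mark the new DNA fell on both sides of 0. Chaf1b, the middle subunit of the histone chaperone CAF-1, was 5.93, 5.99 and 5.97 in young and 6.13, 6.18 and 6.26 in old samples. The groups were well separated for their spread and the second probe gave 0.24, but the difference of 0.23 ± 0.08 did not pass (limma adjusted p = 0.127). Its partner Chaf1a, the largest subunit, had a difference of -0.06 ± 0.10, from 2 young values because the spot of young replicate 3 was an outlier and was left out. Slbp, which binds the stem-loop of histone messages, was 2.89, 3.01 and 3.33 in young and 2.86, 2.63 and 2.76 in old samples. The highest old and the lowest young value nearly touched, young replicate 3 was highest, and the difference of -0.32 ± 0.14 did not pass (limma adjusted p = 0.186). Without young replicate 3 it was -0.20, more than 1.5 times smaller, and the second Slbp probe gave -0.28. Uhrf1, which guides DNA methylation onto the new strand, had a difference of 0.01 ± 0.10. The E cyclins, which start S phase with CDK2, had differences of 0.17 ± 0.11 for Ccne1 and 0.04 ± 0.13 for Ccne2. A second Ccne1 probe differed in sign, at -0.38, so the direction for Ccne1 depended on the probe. Of 7 genes with a second probe this was the only one whose probes had differences of opposite sign.

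**Figure D2:**
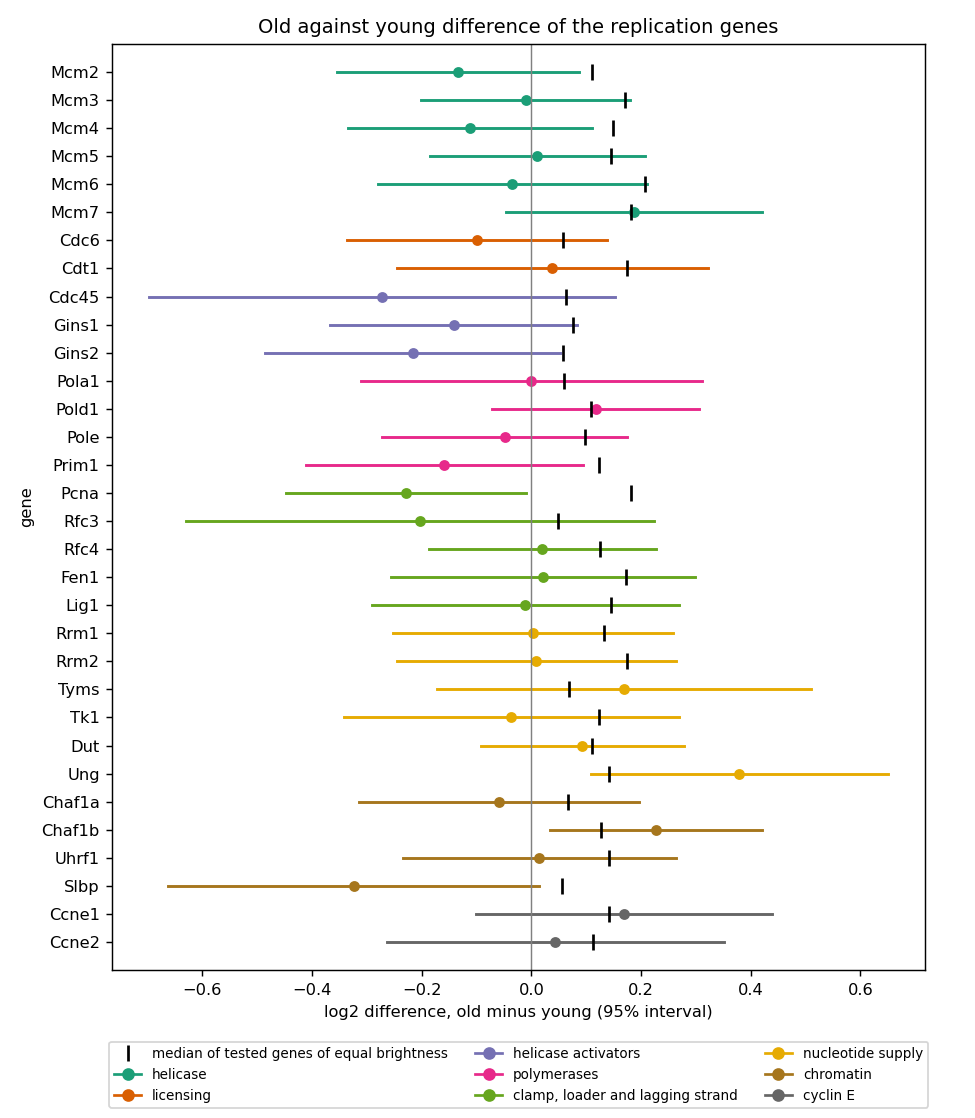
Old minus young log2 difference of each replication gene (dot) with its 95% interval from limma, coloured by role, and the median difference of all tested genes of equal brightness (black tick). The intervals cross 0 except for Pcna, Ung and Chaf1b, and the dots lie left of their tick for 26.

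Genes of equal brightness gave a different base line. For each gene these were all other tested genes whose mean signal lay within 0.5 log2 units of its own, 310 to 2913 genes. The median difference of these neighbours was above 0 for every one of the 32, from 0.05 near Rfc3 to 0.21 near Mcm6, and 59.1% to 96.5% of them had a positive difference. Over all genes tested 62.6% did. On average 4.44% of the neighbours were called, fewer than the 8.39% of all genes. Against this base, 26 of the 32 replication genes lay below the median of their neighbours and 6 above it, with a median gap of -0.15. The widest gaps were -0.41 for Pcna, -0.38 for Slbp and -0.34 for Cdc45, and on the other side 0.24 for Ung, 0.10 for Tyms and 0.10 for Chaf1b.

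**Figure D3:**
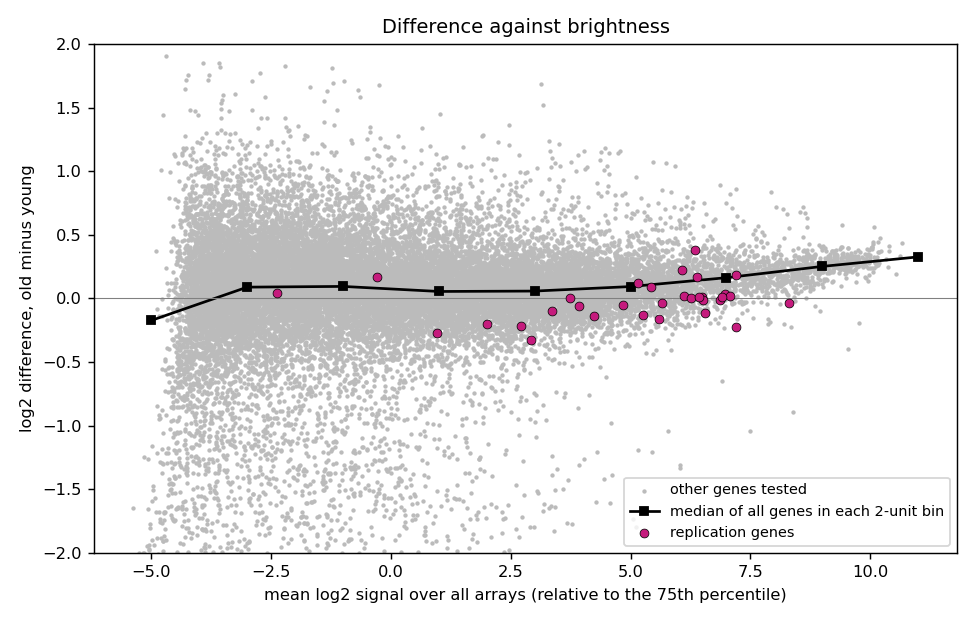
Old minus young log2 difference of each tested gene (vertical axis, drawn from -2 to 2) against its mean log2 signal, with replication genes in pink and black squares for the median of all genes in bins of 2 log2 units. The median climbs from 0.06 in the bin from 2 to 4 to 0.16 in the bin from 6 to 8, where 15 replication genes lie, most of them near 0.

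Other scalings moved the middle of the 32 genes downward. With quantile normalization, cyclic loess and the deposited table, 26, 27 and 25 of the 32 had negative differences, with medians of -0.15, -0.14 and -0.14. The median of all genes moved from 0.08 to 0.02, -0.00 and -0.01 under these. Median centring, which subtracts 1 constant from each array, gave 25 negative and a median of -0.05, and normexp 26 and -0.10, beside 0.04 and 0.12 for all genes. The direction of the list therefore flips from even to mostly negative with the scaling, while no gene passed under any of them. Under quantile normalization 7 genes had an unadjusted limma p under 0.05 (Mcm2, Mcm3, Mcm4, Mcm6, Prim1, Pcna and Slbp). The closest to a call was Pcna, at -0.40 and a limma adjusted p of 0.0514 in the deposited table, and at -0.41 and 0.0520 with quantile normalization. Over all 16 ways of processing, 15 genes kept 1 sign: Ung, Chaf1b, Tyms and Mcm7 stayed positive, and Pcna, Slbp, Cdc45, Gins1, Gins2, Rfc3, Prim1, Mcm2, Mcm4, Cdc6 and Pole negative. Ung ranged from 0.24 to 0.43 and Pcna from -0.41 to -0.16. Chaf1b ranged from 0.08 with quantile normalization to 0.26, and Mcm7 from 0.00 with quantile normalization to 0.26, so a kept sign could go with a difference near 0.

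**Figure D4:**
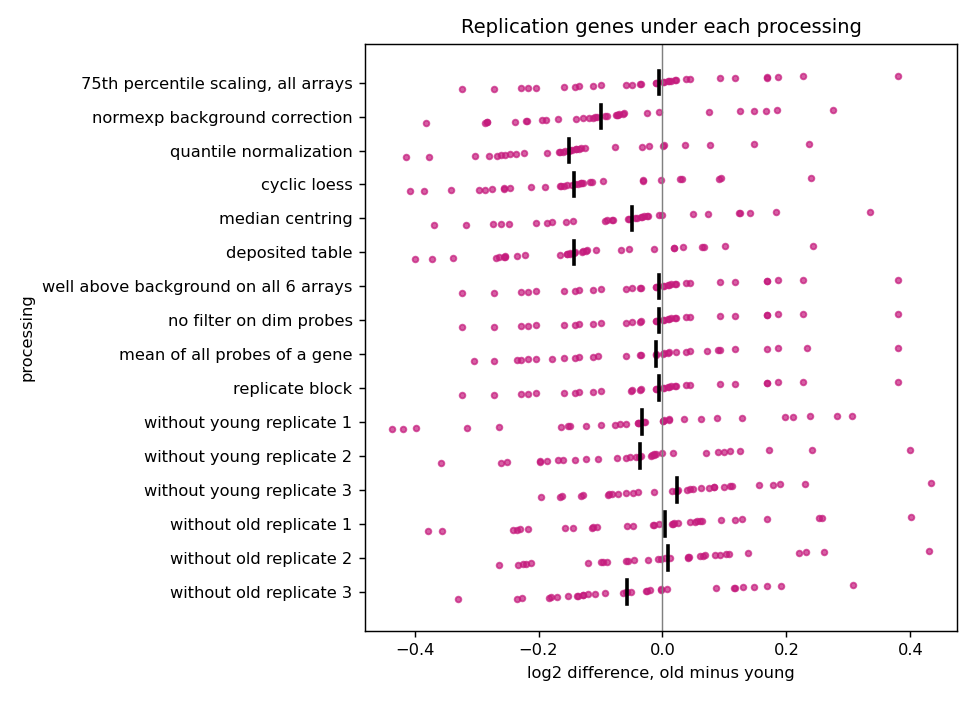
Old minus young log2 differences of the 32 replication genes (dots) and their median (black bar) under each way of processing the arrays. The median is -0.01 with 75th percentile scaling and between -0.15 and -0.14 with quantile normalization, cyclic loess and the deposited table.

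Replicates within an age also differed. The median SD over the 32 genes was 0.10 in young and 0.09 in old samples, beside 0.08 in both for genes of equal brightness. Young replicate 3 held the highest value for 13 of 31 genes and old replicate 3 for 11, whereas old replicate 2 held the lowest for 14. The median deviation from the gene's own mean was 0.07 in young replicate 3, 0.06 in old replicate 3 and -0.08 in old replicate 2. Without young replicate 3 the median difference was 0.02 with 19 of 32 positive, and without old replicate 3 it was -0.06 with 9 positive.

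Several but not all lists of blood cell markers were lower in old samples on the same arrays, where 4.01% of all genes fell. Of 12 tested B lineage genes 7 fell, with a median of -2.31, and the median deviation per array ran from 0.64 to 1.67 in young and from -2.04 to -0.58 in old samples. Of 8 monocyte and macrophage genes 7 fell (median -2.02, with 0.61 to 1.64 in young and -1.23 to -0.65 in old samples). Among them Fcgr1 was well above background on 3 young and 0 old arrays. It thus passed the filter only through the group where it was high, and its fall is partly set by the filter. Of 10 maturing neutrophil genes 4 fell (median -1.26, with 0.16 to 1.21 in young and -0.93 to -0.28 in old samples). Of 6 neutrophil precursor genes 1 fell (median -1.07), and of 8 genes common to leukocytes 5 fell (median -1.38). The T and NK list was mixed, with 2 higher and 2 lower of 8 tested (median -0.60). Of 8 blood stem and progenitor genes 1 fell, but the median was 0.17. None of the 18 erythroid genes tested passed, with a median of -0.00 and per-array medians of -0.09 to 0.02 in young and -0.03 to 0.05 in old samples. Per-array medians of the replication genes ran from -0.04 to 0.07 in young and from -0.08 to 0.06 in old samples. The part of any cell type in the replication values was not tested.

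**Figure D5:**
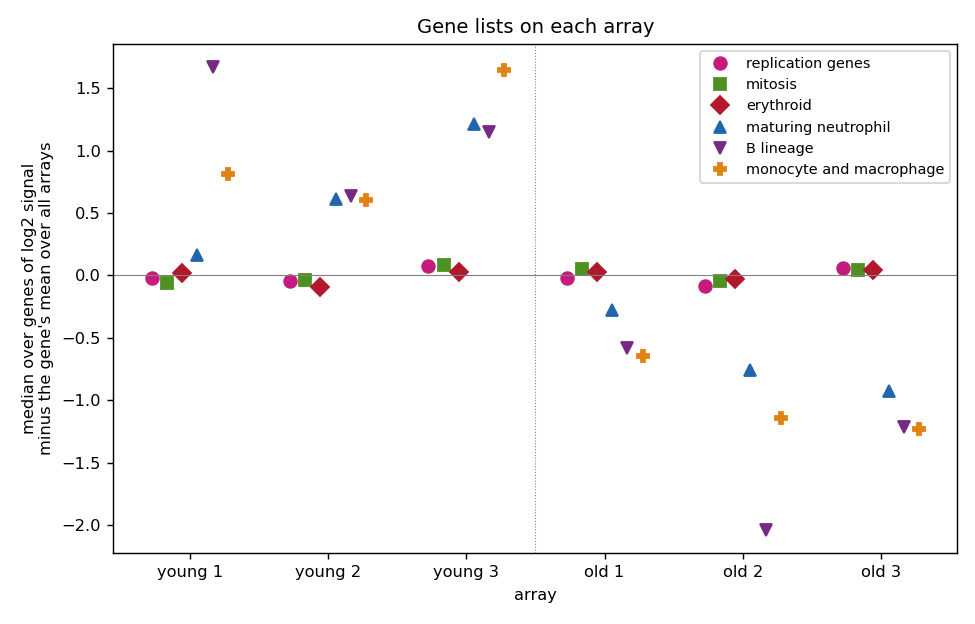
Median over the genes of a list of the log2 signal minus each gene's mean over the arrays, for the 3 young and 3 old arrays. Replication, mitosis and erythroid genes stay within 0.09 of 0 on every array, while B lineage, maturing neutrophil and monocyte genes are above 0 in young and below 0 in old samples.

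Other genes of replication were listed by function. Of 78 such genes tested, 1 rose, 1 fell and 76 did not pass, with a median of -0.01. Of all genes tested, not matched for brightness, 4.38% rose and 4.01% fell. An unadjusted limma p under 0.05 was found for 16 of the 78 and for 28.9% of all genes. Cdc7, the kinase that fires licensed origins, was -1.17, -1.05 and -1.31 in young and -0.14, -0.24 and -0.19 in old samples. The groups were far apart for their spread, and the difference was 0.98 ± 0.10 (limma adjusted p = 0.0176, 95% interval 0.75 to 1.22). A second Cdc7 probe gave 0.36, and the mean of both probes 0.67. On the second probe the groups overlapped, with old replicate 2 (-1.51) inside the young range (-1.81 to -1.47). Its activating partner Dbf4, looked at because of Cdc7, was 1.07, 1.09 and 1.07 in young and 2.02, 1.42 and 1.44 in old samples. All old values were above the young ones, and the difference of 0.55 ± 0.17 did not pass (limma adjusted p = 0.104). The Cdc7 call ended without old replicate 2 (difference 1.01, limma adjusted p = 0.0628) and without old replicate 3 (0.99, 0.0604), although the difference was about as large. Largest in size among the 78 was the difference of Rrm2b, at -1.30, which did not pass (limma adjusted p = 0.0841). Rrm2b was well above background on 3 young and 0 old arrays, so it was tested only through the young group.

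Dck, the kinase that salvages deoxycytidine and is known for its activity in lymphoid cells, was 1.73, 1.71 and 1.98 in young and 1.36, 1.21 and 1.1 in old samples. It fell by 0.58 ± 0.12 (limma adjusted p = 0.0380), with no overlap. B lineage genes had a median difference of -2.31 (above), and their part in this fall was not tested. The call ended without any single array, at differences between -0.65 and -0.50 and limma adjusted p between 0.0528 and 0.112. The polymerase and fork list held no call among 29 genes. Smallest in p were the polymerase epsilon subunit Pole3 (0.34 ± 0.08, limma adjusted p = 0.0582) and the ribonuclease H2 subunit Rnaseh2c (0.25 ± 0.07, 0.0854). Pole3 passed under 1 of the 15 alternatives (limma adjusted p = 0.0455), and Rnaseh2c under 0. Among 11 chromatin genes the remodeller Hells (0.34 ± 0.10, limma adjusted p = 0.101) and the maintenance methylase Dnmt1 (0.18 ± 0.09, 0.240) came closest.

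Genes of the G1 to S transition and of mitosis held no call. None of 12 tested genes of the G1 to S transition passed, where 8.39% of all genes did, and their median was 0.07. The activator E2f2 was 5.43, 5.38 and 5.69 in young and 5.15, 5.0 and 5.36 in old samples, where every old value was below every young one (difference -0.33 ± 0.13, limma adjusted p = 0.170), and Cdk2 had -0.19 ± 0.10. None of 20 mitosis genes passed either, with a median of 0.05. An unadjusted limma p under 0.05 was found for 2 of these 20 and for 28.9% of all genes. The spindle motor Kif11 (0.35 ± 0.10, limma adjusted p = 0.0901) and the mitotic cyclin Ccnb2 (-0.22 ± 0.08, 0.135) had the smallest p and opposite signs. Ccnb2 passed under 1 of the 15 alternatives (limma adjusted p = 0.0365), and Kif11 under 0.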

How the data were processed

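Total RNA was labelled with Cy3 and hybridised to 1-colour Agilent arrays, 1 per sample. The authors deposited spot intensities as Agilent Feature Extraction 10.7.3.1 wrote them, per the file headers (10.5.1.1 per the submitters' processing notes), background-subtracted and detrended within each array. A table of log2 values, which the authors deposited too, covers 52095 probes and was scaled between arrays by a method not given in the sources used here (column medians 4.91, 4.92, 4.95, 4.94, 4.92 and 4.87, young then old). Its columns correlated with their own arrays at r = 0.9986 to 0.9995 across probes.

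Control and outlier spots were dropped, repeated spots averaged, and log2 intensity taken minus each array's 75th percentile. Symbols came from RefSeq accessions (GRCm38.p6): 26413 of 55681 probes matched. Genes well above background on at least 3 of 6 arrays were fitted with limma 3.58.1 (R 4.3.3; lmFit, eBayes, no covariates), with Benjamini-Hochberg adjustment over all genes at 0.05. The number of arrays limits the precision. The code was tested on simulated data. The genes and lists were chosen with earlier results of these data known. All 32 genes are named, and of each other list, called genes, or else the pair with the smallest p. Dbf4 (because of Cdc7), Rrm2b (for the size of its difference) and Fcgr1 (for its detection) were named outside this rule. Same-numbered young and old arrays showed no shared deviation from their group means (r = -0.03, 0.02 and -0.01), and the main fit used no pairing. With 3 arrays per age this cannot exclude that the samples were paired.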

Additional observations from a re-analysis of the deposited data

How the results depend on the processing

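No replication gene passed under any of the 15 alternatives. Their median difference of -0.01 became -0.10 (normexp), -0.15 (quantile normalization), -0.14 (cyclic loess) and -0.14 (the deposited table); leaving out single arrays gave -0.06 to 0.02. Normexp used the median spot signals, as the files hold no mean signal. Of all genes, 1953 were called, but 3360 with normexp, 0 without the filter on dim probes (11933 at an unadjusted limma p under 0.05), 0 with the replicate number as a block (5683 unadjusted), and 0 (without old replicate 3; 5128 unadjusted) to 1262 (without old replicate 1) with 1 array left out; the count was 1 without old replicate 2, 72 without young replicate 2, 305 without young replicate 3 and 831 without young replicate 1. Of the other replication, G1 to S and mitosis genes 2 were called, but 5 with normexp, 4 with the filter at all 6 arrays, 0 without the filter, 0 with the replicate block, and 0 to 1 with 1 array left out. The calls of Cdc7 and Dck ended without the filter (limma adjusted p = 0.0542 for both) and with the block (0.0848 and 0.128). The block of slide row was not run, as each row holds 1 age. The cause of these changes was not tested. All 32 replication genes were well above background on all arrays, and the 3 arrays per age limit the precision.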
